A study of Mus musculus with 9 samples.

Results

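Endothelial cells line blood vessels, and 10 genes by which they are commonly recognised were examined in 4T1 mammary tumors: the receptor genes Kdr, Flt1, Tek and Tie1, the co-receptor gene Eng, the junction genes Cdh5, Cldn5 and Pecam1, the surface sialomucin gene Emcn and the blood clotting gene Vwf. They were chosen by name, and all 10 were found by Entrez identifier among the 18755 genes of the count table. Messenger RNA of whole tumors was sequenced, so the values come from tumor cells, vessels, immune cells and fibroblasts together. A lower share of endothelial cells and less RNA per endothelial cell cannot be told apart in such samples, nor can their opposites.

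The tumors grew from 1000000 4T1 cells, a mouse mammary carcinoma line derived from a BALB/c mouse, placed in a mammary fat pad of female BALB/c mice 6 to 10 weeks old. From day 15 after injection the mice were given BI 853520 (BI), an inhibitor of focal adhesion kinase (FAK), for 5 days at 50 mg/kg (6 tumors, numbered 4 to 9), or Natrosol at 0.5%, the vehicle (3 tumors, numbered 1 to 3). BI was dissolved in that same vehicle and given daily by oral gavage, so treated mice received Natrosol too. Both groups carried the same transplanted cells in the same strain. FAK is a cytoplasmic kinase at the sites where integrins bind matrix, and it is present in endothelial as well as in tumor cells. The comparison asked whether the RNA of the vessel lining differed between treated and vehicle tumors, and whether its genes kept their proportions. The study retained only tumors with sufficient RNA quality. The labels do not say whether each tumor came from its own mouse, so p-values measure the spread between these tumors.

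Blood endothelium is built around a few signaling systems and a characteristic cell junction. VEGFR2, encoded by Kdr, is the main signaling receptor for VEGF-A, while VEGFR1, encoded by Flt1, binds VEGF-A tightly but signals weakly and exists partly as a soluble decoy. TIE2, encoded by Tek, is the angiopoietin receptor that keeps vessels quiescent, and TIE1 is its orphan partner. Endoglin binds BMP9 and TGF-beta ligands together with ALK1. VE-cadherin, claudin-5 and PECAM1 hold neighbouring endothelial cells together, endomucin coats capillary and venous endothelium, and von Willebrand factor is stored in endothelial granules and tethers platelets.

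Depth ranged from 16931607 to 33850245 counts per tumor, vehicle tumor 3 being the deepest. Values below are in CPM, that is, counts divided by the total and multiplied by a constant, scaled for library size and composition (TMM). A gene at 3 counts, taken as the floor, would have 0.0886 to 0.177 CPM. The member with the fewest reads was Tek, with 53 to 144 counts per tumor, and Eng had the most, with 4108 to 8190. Beside the members, 28 other genes of the vessel lining were examined. Of these, 27 had a row and all 27 passed the filter on low counts. Their summed level was 591 to 601 CPM in vehicle and 674 to 899 CPM in BI tumors. The most abundant were Cd93, also present on myeloid cells, and Calcrl, and they weigh most in this sum. Cd93 was at 162 and 222 CPM on average in vehicle and BI tumors, and Calcrl at 108 and 176 CPM. Prox1, the defining transcription factor of lymphatic endothelium, was at 0.120 ± 0.104 CPM in vehicle (SD, n = 3) and 0.128 ± 0.149 CPM in BI tumors (SD, n = 6), around the floor.

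Several genes of the vessel lining were higher in treated tumors, by modest amounts. Cdh5, Kdr, Tie1 and Cldn5 rose, by 1.30- to 1.45-fold, and none of the 10 genes fell. These 4 of 10 passed the threshold of 0.05 in edgeR's quasi-likelihood test, with p-values adjusted after Benjamini and Hochberg, where 14.6% of the 13966 genes tested were called higher and 14.1% lower. At an unadjusted p of at most 0.05, 7 of 10 were higher and 0 lower, against 20.5% and 20.3% of all genes. The median log2 fold change of the 10 genes was 0.37, and that of all genes tested was -0.0037. Every BI tumor lay above every vehicle tumor for the same 4 genes, a pattern held by 14.1% of all genes, and for no member did every BI tumor lie below, as it did for 14.0% of all genes. By the cutoffs the study used, a 1.5-fold change together with an unadjusted p up to 0.05, 1 of 10 was higher (Tek) and 0 lower, against 9.59% and 3.57% of all genes.

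The count of 4 depended on single tumors. Without vehicle tumor 3 the edgeR test called 0 members higher, with 4 at an unadjusted p of at most 0.05, while 1332 of 14129 genes were still called. The count was 2 without vehicle tumor 1, 3 without BI tumor 4, 6 without BI tumor 6 and 6 without BI tumor 8. All 10 log2 fold changes kept their sign in every refit (160 values over members and refits), and no member was called lower in any refit.

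**Figure D1:**
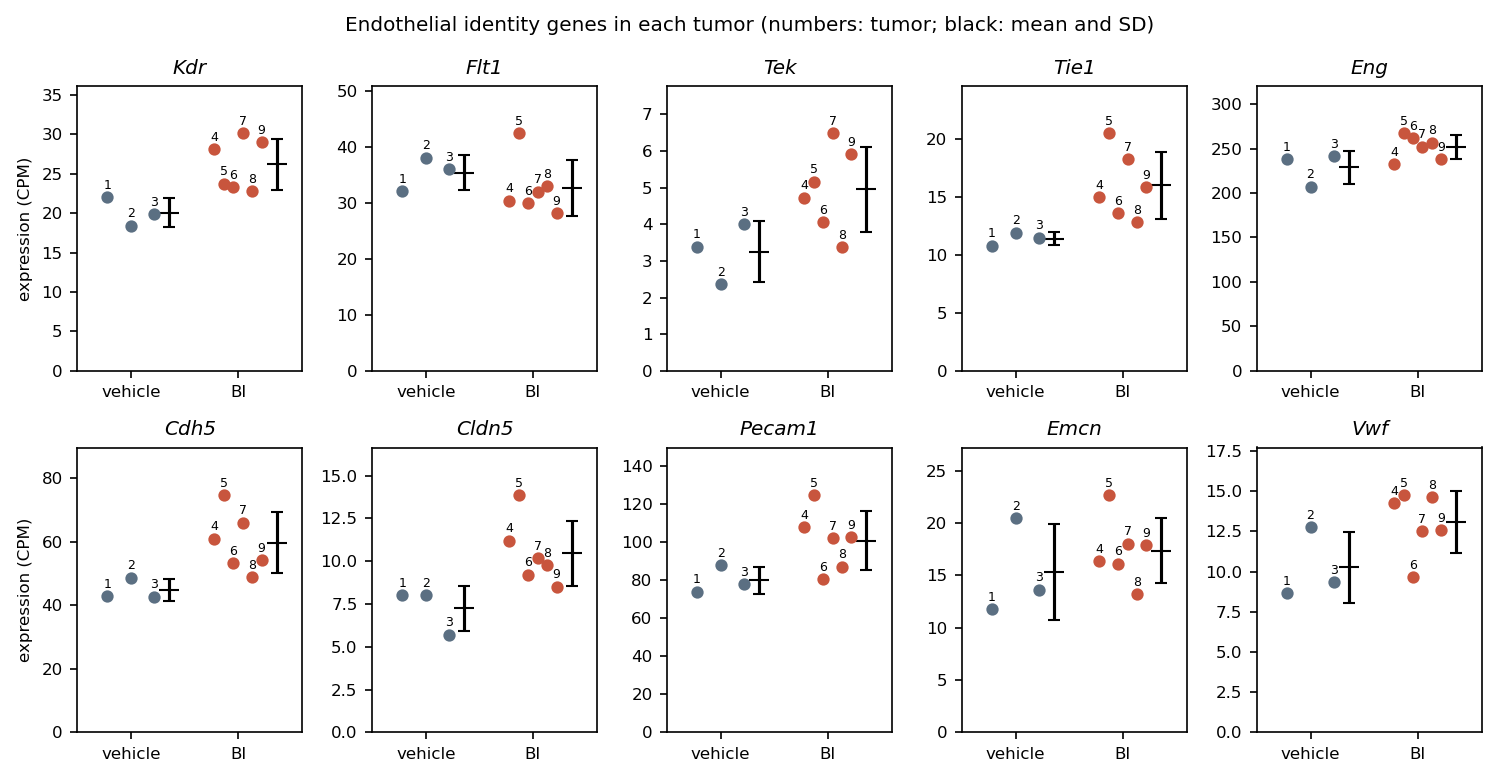
Expression of the 10 endothelial identity genes in CPM (vertical axes start at 0) in the 3 vehicle and 6 BI tumors. Each point is 1 tumor with its number, and black marks give mean and SD of the group. For Kdr, Tie1, Cdh5 and Cldn5 every BI point lies above every vehicle point, and for Flt1 BI tumor 5 stands at 42.4 CPM above the other BI tumors.

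Of the VEGF receptor genes, Kdr rose and Flt1 did not pass the test. Promoter sequences of Kdr and Flt1 are shown because ETS factors, which read a GGAA core, are known regulators of endothelial genes. Both run from 250 bases before to 50 bases after the start of the gene, 5′ to 3′ on the strand of the gene (RefSeq, GRCm38.p6). Capitals mark GGAA or its reverse complement TTCC. Kdr is at chr5:75978406-75978705 on the minus strand and Flt1 at chr5:147725962-147726261 on the minus strand.
Kdr: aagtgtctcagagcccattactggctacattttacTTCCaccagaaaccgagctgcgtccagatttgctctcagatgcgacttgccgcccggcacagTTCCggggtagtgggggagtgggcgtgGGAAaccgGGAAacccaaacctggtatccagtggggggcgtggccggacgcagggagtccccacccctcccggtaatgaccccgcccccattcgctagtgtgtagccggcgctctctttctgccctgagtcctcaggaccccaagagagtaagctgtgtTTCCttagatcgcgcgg
Flt1: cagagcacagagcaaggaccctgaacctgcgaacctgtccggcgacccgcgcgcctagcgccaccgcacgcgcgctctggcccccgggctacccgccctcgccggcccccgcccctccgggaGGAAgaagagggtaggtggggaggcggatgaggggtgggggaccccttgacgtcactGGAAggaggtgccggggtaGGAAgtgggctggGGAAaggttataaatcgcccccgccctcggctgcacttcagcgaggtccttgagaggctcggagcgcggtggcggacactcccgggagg
The core occurred 5 times in the Kdr window and 4 times in the Flt1 window. It is short, and 96.0% of 32851 mouse promoters of that length held at least 1 copy, with a median of 3.

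Kdr (mm9, chr5:76328852-76374483, minus strand) was at 22.0, 18.4 and 19.8 CPM in vehicle tumors 1 to 3. In BI tumors it ranged from 22.8 (tumor 8) through a median of 25.9 to 30.1 CPM (tumor 7). The groups did not overlap, although BI tumor 8 lay only just above vehicle tumor 1. Kdr rose 1.30-fold, a log2 fold change of 0.38 ± 0.11 (SE, adjusted p = 0.0214). The call was lost without vehicle tumor 2 (adjusted p = 0.0898) or vehicle tumor 3 (adjusted p = 0.0754).

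Flt1 (mm9, chr5:148373180-148537587, minus strand) was at 32.1, 38.1 and 36.1 CPM in vehicle tumors 1 to 3. The BI tumors spanned values from 28.2 (tumor 9) through a median of 31.2 to 42.4 CPM (tumor 5). Flt1 was the only member with a fold change below 1: 4 of 6 BI tumors lay below every vehicle tumor, while BI tumor 5 lay above all of them. The log2 fold change of -0.12 ± 0.12 (SE) did not pass the test (adjusted p = 0.476). Without BI tumor 5 it was -0.21 (adjusted p = 0.0694). The deposited counts do not separate the membrane-bound from the soluble form of VEGFR1. Per kilobase of transcript, the ratio of Flt1 to Kdr was 1.26, 1.80 and 1.58 in the vehicle tumors. In BI tumors 4 to 9 the ratio was 0.939, 1.55, 1.12, 0.924, 1.26 and 0.845. BI tumor 5 lay within the vehicle range, BI tumor 8 just below it, and the other 4 further below. The ratio was chosen after the values were seen and was not tested.

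Of the TIE receptor genes, Tie1 rose and Tek did not pass the adjusted test. The Tie1 window (chr4:118489800-118490099, minus strand, GRCm38.p6) is shown in the same way because it held the largest number of GGAA or TTCC cores among the 7 members with a RefSeq promoter entry.
Tie1: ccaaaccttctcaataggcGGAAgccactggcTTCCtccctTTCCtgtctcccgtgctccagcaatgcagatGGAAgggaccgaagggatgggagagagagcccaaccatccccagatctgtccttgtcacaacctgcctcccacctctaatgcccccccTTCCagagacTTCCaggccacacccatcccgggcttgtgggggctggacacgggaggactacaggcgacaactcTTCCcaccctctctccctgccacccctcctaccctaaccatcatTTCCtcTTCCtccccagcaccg
It held 9 copies. Tek held 2 and Emcn held 6 in their windows.

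Tie1 (mm9, chr4:118143796-118162666, minus strand) was at 10.8, 11.9 and 11.5 CPM in vehicle tumors 1 to 3. Among BI tumors it went from 12.8 (tumor 8) through a median of 15.5 to 20.5 CPM (tumor 5). The vehicle tumors lay close together and every BI tumor was above them. Tie1 rose 1.40-fold, a log2 fold change of 0.49 ± 0.14 (SE, adjusted p = 0.0222). The call was lost without vehicle tumor 1 (adjusted p = 0.0831) or vehicle tumor 3 (adjusted p = 0.0714).

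Tek (mm9, chr4:94405980-94541667, plus strand), the member with the lowest level, was at 3.39, 2.37 and 4.01 CPM in vehicle tumors 1 to 3. In BI tumors it ranged from 3.37 (tumor 8) through a median of 4.94 to 6.48 CPM (tumor 7). BI tumor 8 lay below 2 of the 3 vehicle tumors, and the other 5 BI tumors lay above all of them. Tek had the largest estimate among the members, a log2 fold change of 0.59 ± 0.23 (SE), which did not pass the adjusted test (adjusted p = 0.0697). It passed without BI tumor 8 (adjusted p = 0.0347), in the likelihood ratio test of edgeR (adjusted p = 0.0468) and in DESeq2 (adjusted p = 0.0430).

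Eng, the co-receptor for BMP9 and TGF-beta, was the most abundant member and had a fold change of 1.10. It lies at chr2:32502115-32538189 on the plus strand of mm9, and its exons overlap those of Ak1 on the same strand and Fpgs on the other. The library kit marked strand, but whether the counting used strand is not given in the sources used here, so reads of these genes cannot be fully told apart. Eng was at 238, 207 and 241 CPM in vehicle tumors 1 to 3. The BI tumors spanned values from 232 (tumor 4) through a median of 254 to 267 CPM (tumor 5). The ranges overlapped, with 4 of 6 BI tumors above every vehicle tumor, and the log2 fold change of 0.13 ± 0.068 (SE) did not pass the test (adjusted p = 0.157). Without vehicle tumor 2 it was 0.067 (adjusted p = 0.532). Eng is also made by activated macrophages and by mesenchymal cells.

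Cdh5 and Cldn5, transcripts of the adherens and tight junctions of endothelium, both rose. The Cldn5 window (chr16:18776597-18776896, plus strand, GRCm38.p6) is shown beside those above because it held 0 copies of either core, so that no letter is in capitals.
Cldn5: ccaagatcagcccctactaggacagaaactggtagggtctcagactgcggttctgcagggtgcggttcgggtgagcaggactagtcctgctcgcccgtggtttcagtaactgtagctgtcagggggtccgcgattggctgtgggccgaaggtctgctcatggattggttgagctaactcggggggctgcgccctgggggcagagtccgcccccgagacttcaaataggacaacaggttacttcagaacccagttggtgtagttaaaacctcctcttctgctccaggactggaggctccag
The windows of all 7 members with an entry were also searched for ACGTG or CACGT, 1 form of the core bound by hypoxia-inducible factors. This form occurred in 0 of them and in 19.6% of all promoters of that length. The other form, GCGTG, was not counted, and the Kdr window above holds it, so absence of the core is not shown.

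Cdh5, which encodes VE-cadherin (mm9, chr8:106625525-106668402, plus strand), was at 43.0, 48.7 and 42.7 CPM in vehicle tumors 1 to 3. Among BI tumors it went from 48.9 (tumor 8) through a median of 57.6 to 74.7 CPM (tumor 5). BI tumor 8 was nearly level with vehicle tumor 2, and no tumors crossed. Cdh5 rose 1.33-fold, a log2 fold change of 0.41 ± 0.12 (SE, adjusted p = 0.0231). The call was lost without vehicle tumor 1 (adjusted p = 0.0871) or vehicle tumor 3 (adjusted p = 0.0937).

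Cldn5, which encodes the tight junction strand protein claudin-5 (mm9, chr16:18776940-18778353, plus strand), was at 8.02, 8.01 and 5.72 CPM in vehicle tumors 1 to 3. In BI tumors it ranged from 8.52 (tumor 9) through a median of 9.96 to 13.9 CPM (tumor 5). Every BI tumor was above the vehicle tumors, of which tumor 3 was the lowest. Cldn5 rose 1.45-fold, the largest change among the called members, with a log2 fold change of 0.54 ± 0.17 (SE, adjusted p = 0.0307). The call was lost without vehicle tumor 3 (adjusted p = 0.151) or BI tumor 4 (adjusted p = 0.0509).

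Pecam1, the adhesion molecule CD31 used to stain tumor vessels, came close to the threshold. It lies at chr11:106515531-106611942 on the minus strand of mm9. It was at 74.0, 87.8 and 78.1 CPM in vehicle tumors 1 to 3. The BI tumors spanned values from 80.5 (tumor 6) through a median of 102 to 125 CPM (tumor 5). BI tumors 6 and 8 lay within the vehicle range and the other 4 above it. The log2 fold change of 0.34 ± 0.12 (SE) had an adjusted p of 0.0532. It passed without BI tumor 6 (adjusted p = 0.0168), without BI tumor 8 (adjusted p = 0.0366), with a filter at 1 CPM in 3 tumors (adjusted p = 0.0464), in the likelihood ratio test (adjusted p = 0.0299) and in DESeq2 (adjusted p = 0.0264). PECAM1 is also carried by platelets and by several kinds of leukocyte. The study stained sections of 4T1 tumors for CD31 as a measure of vessel density and found no significant change. The same held for its stains of vessel perfusion, leakiness and hypoxia. Those stains read tissue sections, not RNA.

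Emcn and Vwf, whose products sit on capillaries and veins and in endothelial storage granules, varied more between vehicle tumors than the other members did, Tek excepted. Emcn (mm9, chr3:137004031-137095149, plus strand) was at 11.8, 20.5 and 13.6 CPM in vehicle tumors 1 to 3. Among BI tumors it went from 13.2 (tumor 8) through a median of 17.1 to 22.7 CPM (tumor 5). Vehicle tumor 2 stood above 5 of 6 BI tumors, and the log2 fold change was 0.19 ± 0.18 (SE, adjusted p = 0.472). It was 0.033, 0.45 and 0.11 without vehicle tumors 1, 2 and 3 (adjusted p = 0.923, 0.0846 and 0.769) and 0.096 without BI tumor 5 (adjusted p = 0.704).

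Vwf (mm9, chr6:125496792-125636697, plus strand) was at 8.66, 12.7 and 9.34 CPM in vehicle tumors 1 to 3. In BI tumors it ranged from 9.66 (tumor 6) through a median of 13.4 to 14.8 CPM (tumor 5). Vehicle tumor 2 again reached into the BI range, above BI tumors 6, 7 and 9. The log2 fold change of 0.35 ± 0.15 (SE) did not pass the test (adjusted p = 0.110), but did without vehicle tumor 2 (adjusted p = 0.0350) or BI tumor 6 (adjusted p = 0.0359).

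Levels of different genes were compared per kilobase of the deposited gene length (RPKM), in which the members spanned a wide range. In vehicle tumors the order was Eng (64.1 ± 5.27 RPKM, SD, n = 3), Pecam1 (24.2 ± 2.14), Cdh5 (11.2 ± 0.843), Emcn (10.5 ± 3.14), Flt1 (5.64 ± 0.489), Cldn5 (5.12 ± 0.937), Kdr (3.69 ± 0.334), Tie1 (2.94 ± 0.146), Vwf (1.16 ± 0.248) and Tek (0.700 ± 0.178). The ranges of neighbouring genes overlapped for Cdh5 and Emcn, for Flt1 and Cldn5 and for Cldn5 and Kdr. Compared within each vehicle tumor, Cldn5 was above Kdr in all of them. Cdh5 with Emcn and Flt1 with Cldn5 changed order between vehicle tumors, so their order was not resolved. In BI tumors Cldn5 (7.38 ± 1.34 RPKM, SD, n = 6) stood above Flt1 (5.21 ± 0.805), and the other 8 genes held the same places. There, the ranges of neighbours overlapped all along the order from Cdh5 to Tie1, as did Vwf with Tek. Within every BI tumor, however, Cdh5 was above Emcn, Emcn above Cldn5, Cldn5 above Flt1 and Vwf above Tek. Flt1 with Kdr and Kdr with Tie1 changed order between BI tumors. Eng and Pecam1 stood apart from the rest in both groups.

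Whether the members kept their proportions was asked within each tumor, by setting the log2 CPM of a gene against the mean of the other 9. Flt1 had the largest shift with all tumors included: its difference from the others was 0.78 ± 0.087 in vehicle (SD, n = 3) and 0.28 ± 0.17 in BI tumors (SD, n = 6), a shift of -0.50 on the log2 scale with every BI tumor below every vehicle tumor. Exact permutation of the 9 tumors, with 84 possible divisions, gave a two-sided p of 0.0238, the smallest it can give, and an adjusted p of 0.238 over the 10 genes. The shift of Flt1 lay between -0.55 and -0.46 when single tumors were left out. Those of Tek and Cldn5 were less stable: Tek was at 0.025 without vehicle tumor 2 and at 0.49, larger in size than the -0.47 of Flt1, without vehicle tumor 3. Cldn5 was at 0.054 without vehicle tumor 3 and at 0.34 without vehicle tumor 1. The shift of Tie1 was 0.16, with 5 of 6 BI tumors above every vehicle tumor (exact permutation p = 0.0476, adjusted p = 0.238). The shift of Eng was -0.21 (exact permutation p = 0.119, adjusted p = 0.397). Shifts of the other 7 genes lay between -0.13 for Emcn and 0.29 for Tek, with adjusted exact permutation p between 0.476 and 0.976. No member therefore passed the adjusted threshold, which the smallest possible p could have met only if at least 5 of the 10 genes had reached it.

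**Figure D2:**
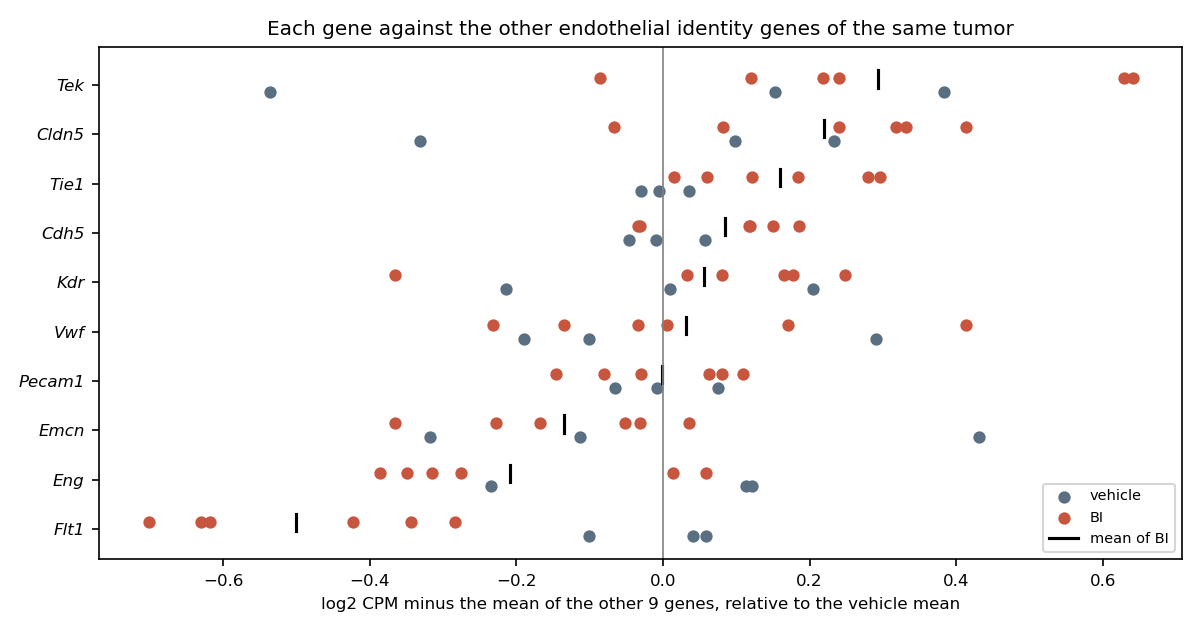
Log2 CPM of each gene minus the mean log2 CPM of the other 9 genes in the same tumor, with the vehicle mean of the gene set to 0 (horizontal axis). Points are tumors and black lines the BI means. All 6 BI tumors lie below the vehicle tumors for Flt1, with a mean shift of -0.50, while the groups overlap for the other genes.

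The members also varied together between tumors of a group, but only in part. Their mean log2 CPM was 4.40, 4.52 and 4.42 in vehicle tumors 1 to 3 and 4.79, 5.02, 4.59, 4.87, 4.60 and 4.75 in BI tumors 4 to 9. All BI tumors were above all vehicle tumors, tumors 6 and 8 by the least. BI tumor 5 had the highest value for 8 of the 10 genes, BI tumor 7 for Kdr and Tek. With group means removed, the correlation of a gene with the mean of the other members over the 9 tumors was 0.953 for Tie1, 0.941 for Cdh5 and 0.919 for Pecam1. It was 0.658 for Emcn, 0.599 for Flt1, 0.513 for Cldn5 and 0.365 for Vwf. For Tek it was 0.197, for Kdr 0.0879 and for Eng -0.158. Over the 45 pairs the median was 0.330 and 32 were above 0, from -0.531 for Kdr with Flt1 to 0.925. These are descriptions over 9 libraries that share a preparation and, within a tumor, a total count.

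**Figure D3:**
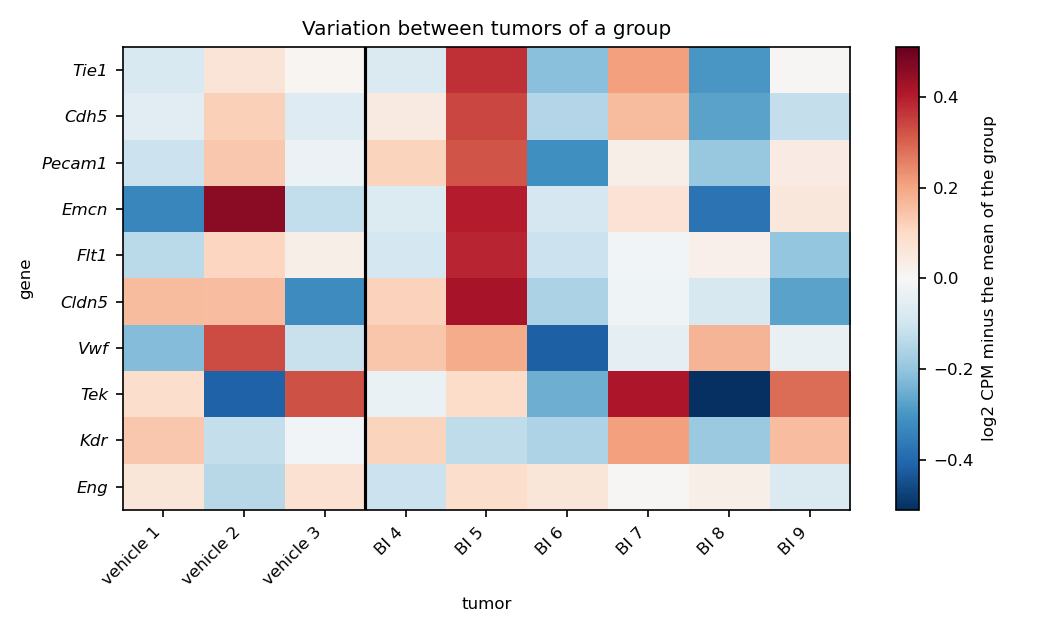
Deviation of log2 CPM from the group mean (color scale) for the 10 genes (rows, ordered by their correlation with the other members) in the 9 tumors (columns, with a line between the vehicle and BI groups). BI tumor 5 is high and BI tumors 6 and 8 are low for Tie1, Cdh5 and Pecam1, while the BI tumors differ little for Eng, in the bottom row.

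Among the 10 genes outside the members whose variation was most like their mean (Pearson r over 9 tumors, group means removed, among genes at a mean log2 CPM of at least 1) were Tet3 (r = 0.975), Arid4a, Dysf, Mcam (r = 0.953), Csf2rb2, Tspan13, B3galnt2, Sypl and Ipcef1 (r = 0.911). Of these, Mcam encodes CD146, an adhesion molecule of endothelium and pericytes. Of the 10, 4 were also among the 10 highest by Spearman's rho and 2 among the 10 highest in BI tumors alone. Of the 50 genes most alike, 3 were in the other lists of endothelial genes and 1, Mcam, was in the mural list. The median r was 0.595 for 26 other pan-endothelial genes and -0.0025 for all 12176 genes compared. It was 0.643 for 2 skeletal muscle genes and 0.430 for 4 platelet and megakaryocyte genes. For 12 proliferation genes it was -0.583, with a range of -0.698 to -0.415.

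Among the other genes of the vessel lining more rose than fell. Of 27 pan-endothelial genes tested besides the members, 10 rose and 1 fell, against 14.6% and 14.1% of all genes. Their median log2 fold change was 0.32. Clec14a, a C-type lectin of tumor endothelium, rose from 4.15 ± 0.109 to 7.06 ± 1.18 CPM (SD, n = 3 and 6), a log2 fold change of 0.76 ± 0.16 (SE, adjusted p = 0.00378). Acvrl1, which encodes ALK1, the receptor that works with endoglin, rose by 0.41 ± 0.085 (SE, adjusted p = 0.00411). Calcrl, the receptor for adrenomedullin and CGRP, rose from 108 ± 9.34 to 176 ± 37.5 CPM (SD, n = 3 and 6), by 0.71 ± 0.15 (SE, adjusted p = 0.00475). Cd93, the most abundant of the list and also present on myeloid cells, rose by 0.45 ± 0.13 (SE, adjusted p = 0.0244), a call lost without any 1 of the vehicle tumors (adjusted p = 0.0690, 0.0574 and 0.0984 without tumors 1, 2 and 3). Icam2, a ligand of leukocyte integrins and the only gene of the list to fall, had a log2 fold change of -0.41 ± 0.098 (SE, adjusted p = 0.00932). The number that rose was 3, 5 and 5 without vehicle tumors 1, 2 and 3 and 6 without BI tumor 7, and the number that fell was 0 without vehicle tumor 1.

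Transcription factors of endothelium were mixed. Of 21 tested, 7 rose and 2 fell, against 14.6% and 14.1% of all genes (median log2 fold change 0.25). Fli1, an ETS factor of endothelial and blood cells, rose from 22.7 ± 0.732 to 41.1 ± 3.23 CPM (SD, n = 3 and 6), by 0.86 ± 0.079 (SE, adjusted p = 3.68e-05). Lyl1, a helix-loop-helix factor of the same lineages, rose by 1.45 ± 0.14 (SE, adjusted p = 4.16e-05). Ets1 fell, with a log2 fold change of -0.52 ± 0.064 (SE, adjusted p = 0.000166). Elk3, the most abundant of the list, fell with a log2 fold change of -0.19 ± 0.058 (SE, adjusted p = 0.0266), a call lost without vehicle tumor 1 (adjusted p = 0.118), vehicle tumor 3 (adjusted p = 0.0694) or BI tumor 8 (adjusted p = 0.0594). Erg, an ETS factor of endothelium, was at 4.21 ± 0.969 and 4.69 ± 0.445 CPM (SD, n = 3 and 6, adjusted p = 0.504). Sox18, another factor of endothelium, rose by 0.60 ± 0.12 (SE, adjusted p = 0.00438). Lmo2, Mef2c, Klf2 and Epas1 were the remaining genes of the list to rise. Erg, Sox18, Lmo2, Mef2c, Klf2 and Epas1 were named after their values were seen.

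Among genes of sprouting tip cells, which lead new vessels and respond to VEGF-A through VEGFR2, more fell than rose. Of 17 tested, 2 rose and 5 fell, against 14.6% and 14.1% of all genes, with a median log2 fold change of -0.15. The neuropilins, co-receptors for VEGF, split: Nrp1, the partner of VEGFR2, rose from 67.8 ± 6.28 to 125 ± 17.1 CPM (SD, n = 3 and 6), by 0.88 ± 0.11 (SE, adjusted p = 0.000206). Nrp2 went from 292 ± 8.78 to 195 ± 26.5 CPM (SD, n = 3 and 6), a log2 fold change of -0.59 ± 0.097 (SE, adjusted p = 0.00110). Both are also made by tumor cells and macrophages. Notch4, a Notch receptor of endothelium, rose by 0.44 ± 0.10 (SE, adjusted p = 0.00734). The other 4 that fell were Esm1 (adjusted p = 0.0119), Apln (adjusted p = 0.00872), Plaur (adjusted p = 0.0388) and Pdgfb (adjusted p = 0.0254), with log2 fold changes of -0.88, -0.67, -0.39 and -0.28. Unc5b, the most abundant of the list, had a log2 fold change of -0.14 ± 0.088 (SE, adjusted p = 0.258). The number that fell was 3, 2 and 3 without vehicle tumor 1, vehicle tumor 2 and BI tumor 8.

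Genes of vessel types and of junctions are given beside the shares of all genes called, 14.6% higher and 14.1% lower. Of 7 arterial genes 1 rose (Fbln5, 0.88 ± 0.17, SE, adjusted p = 0.00319) and 1 fell (Efnb2, -0.55 ± 0.19, SE, adjusted p = 0.0496), the latter lost without any of vehicle tumors 1 and 3 and BI tumors 4, 6, 7 and 8 (adjusted p = 0.152, 0.195, 0.0526, 0.0795, 0.0727 and 0.0790) and with 3 other settings. Of 8 venous genes 1 fell, Nr2f2, which encodes the venous regulator COUP-TFII (-0.35 ± 0.10, SE, adjusted p = 0.0232). That call was lost without any 1 vehicle tumor (adjusted p = 0.0636, 0.0545 and 0.0824 without tumors 1, 2 and 3). Ephb4, the receptor of venous endothelium, had a log2 fold change of -0.20 (adjusted p = 0.113) and Selp, the most abundant venous gene, one of 0.24 (adjusted p = 0.291, and 0.0258 without BI tumor 4). Of 6 lymphatic genes 1 rose, Thy1, which fibroblasts and T cells also express (0.51 ± 0.13, SE, adjusted p = 0.0116), lost without vehicle tumor 1 (adjusted p = 0.0586) or 2 (adjusted p = 0.0528). Lyve1, shared with macrophages, was at 0.40 (adjusted p = 0.240, and 0.0460 without vehicle tumor 2). Of 14 capillary and transport genes 1 rose, Gpihbp1 of capillary endothelium (0.65, adjusted p = 0.0295), and 3 fell. Those that fell were Slc2a1 (-0.63 ± 0.080, SE, adjusted p = 0.000212), Cav2 (-0.57 ± 0.095, SE, adjusted p = 0.00113) and Tfrc (-0.49 ± 0.097, SE, adjusted p = 0.00317). These encode a glucose transporter, a caveolar coat protein and the transferrin receptor, and tumor cells express all of them. Of 14 other endothelial junction genes 1 rose, Jam2 (0.50, adjusted p = 0.0114), and 8 fell (median -0.29), among them Cldn12, Nectin2 and Cgn, which epithelial tumor cells also use. Gpihbp1 and Jam2 were named after their values were seen. Tjp1, the most abundant of the junction list, had a log2 fold change of 0.046 (adjusted p = 0.837). Cgn went from 5.95 ± 0.784 to 1.74 ± 0.579 CPM (SD, n = 3 and 6, adjusted p = 0.000481).

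Ligands of the member receptors showed no common direction. Of 11 tested, 2 rose and 1 fell, against 14.6% and 14.1% of all genes, with a median log2 fold change of -0.22. Vegfa, the main ligand of VEGFR2, was at 161 ± 28.8 CPM in vehicle and 138 ± 19.6 CPM in BI tumors (SD, n = 3 and 6, adjusted p = 0.208). Vegfb, a ligand of VEGFR1 alone, fell, with a log2 fold change of -0.33 ± 0.065 (SE, adjusted p = 0.00337). Angpt1, the agonist of TIE2, was at 29.2 ± 7.65 and 17.4 ± 6.38 CPM (SD, n = 3 and 6, adjusted p = 0.0528), and Angpt2, its context-dependent antagonist, at 29.4 ± 3.08 and 24.4 ± 4.38 CPM (adjusted p = 0.159). Angpt4 rose at a low level, from 0.473 ± 0.0769 to 1.18 ± 0.492 CPM (SD, n = 3 and 6, adjusted p = 0.0247), a call lost without vehicle tumors 1, 2 or 3 (adjusted p = 0.0872, 0.0773 and 0.0610). Tgfb1 rose by 0.27 ± 0.065 (SE, adjusted p = 0.00904), lost without vehicle tumor 3 (adjusted p = 0.0577). Gdf2, which encodes BMP9, and Bmp10 were at or under 0.0295 CPM on average in both groups, below the floor. Vegfa, Angpt1 and Angpt2 were named for their roles, outside the rule for named genes.

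Of 28 signaling partners of the receptors tested, 7 rose and 7 fell, where 14.6% of all genes were called higher and 14.1% lower. Besides Nrp1, those with the smallest p were Fyn, a Src family kinase (0.55 ± 0.066, SE, adjusted p = 0.000139), and Sh2d2a, which encodes the VEGFR2 adaptor TSAd that T cells also express (1.41 ± 0.20, SE, adjusted p = 0.000374). Ctnnb1, the beta-catenin gene and the most abundant of them, had a log2 fold change of -0.16 (adjusted p = 0.103, and 0.0406 in DESeq2). Of 15 mural cell genes, which mark pericytes and vascular smooth muscle, 1 rose, Acta2 (0.27 ± 0.092, SE, adjusted p = 0.0465), a call that was lost without any vehicle tumor or BI tumors 4, 7 or 8 (adjusted p between 0.0605 and 0.204) and with 2 other settings. Mylk and Notch3 had log2 fold changes of -0.31 (adjusted p = 0.0658) and 0.15 (adjusted p = 0.463). Mylk passed without vehicle tumor 2 (adjusted p = 0.00650) or BI tumor 8 (adjusted p = 0.0451), in the likelihood ratio test (adjusted p = 0.0436) and in DESeq2 (adjusted p = 0.0496). The summed level of the mural genes was 376 to 419 CPM in vehicle and 382 to 431 CPM in BI tumors, and the groups overlapped.

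**Figure D4:**
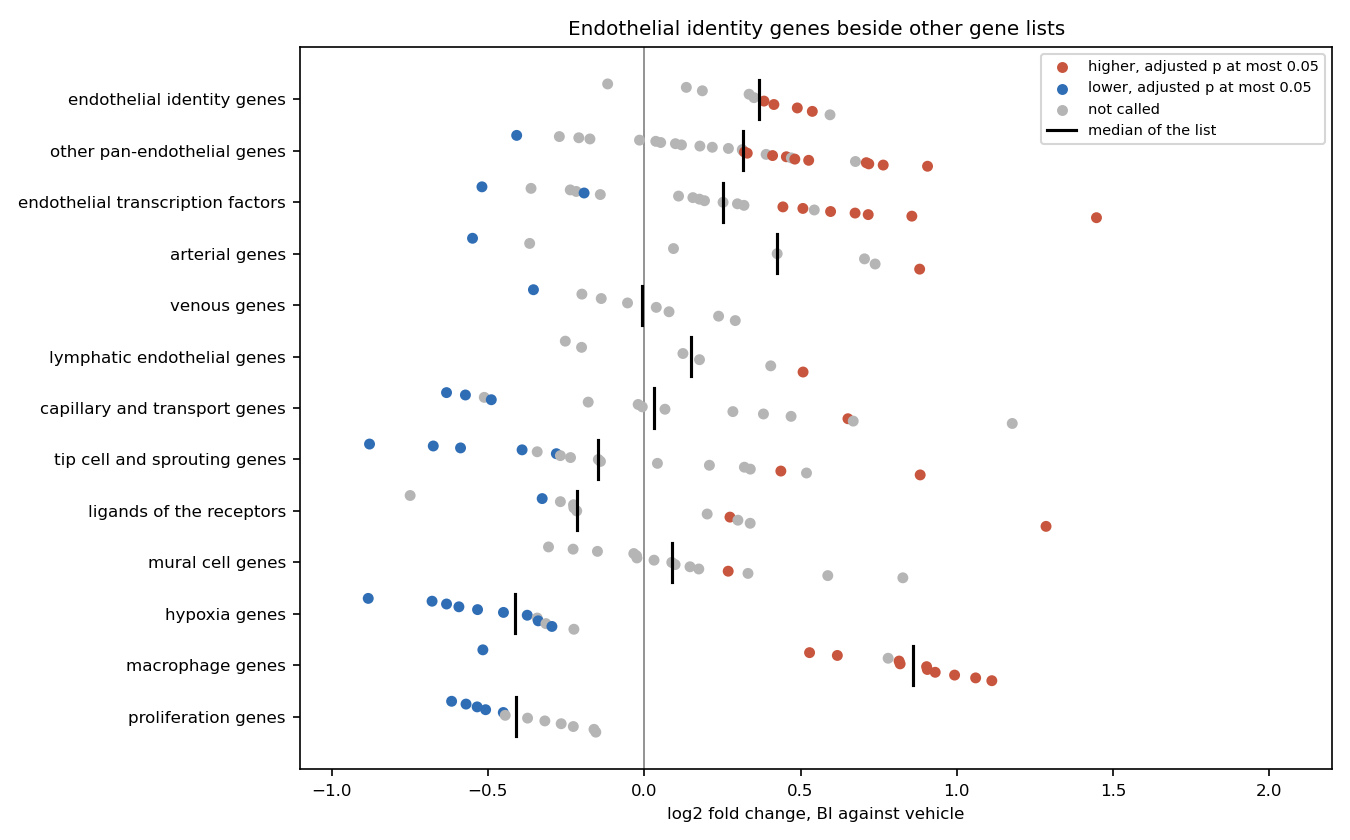
Log2 fold change of BI against vehicle (horizontal axis) of each gene tested in the endothelial identity genes and 12 other lists. Points are genes, red and blue mark those called higher and lower at an adjusted p of at most 0.05, and black lines are list medians, from -0.41 for hypoxia genes through 0.37 for the endothelial identity genes to 0.86 for macrophage genes.

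Markers of other cells in the tumor moved between the groups as well, where 14.6% of all genes were called higher and 14.1% lower. Of 12 macrophage genes 10 rose and 1 fell (Cd14), with a summed level of 2216 to 2869 CPM in vehicle and 4063 to 4811 CPM in BI tumors. Of 9 T cell genes 8 rose (74.7 to 86.3 CPM summed in vehicle, 135 to 197 CPM in BI tumors). Pecam1, Eng, Cd93, Fli1, Lyl1 and Nrp1 are expressed by some of these cells, and their part in the values above was not tested. Platelet and megakaryocyte genes, which bear on Pecam1 and Vwf, summed to 152 to 193 and 143 to 186 CPM. Itgb3, the most abundant of these genes, weighs most in this sum. It was at 96.6 CPM on average in vehicle and 83.7 CPM in BI tumors (adjusted p = 0.0585, and 0.0189 to 0.154 over the leave-outs). Of 7 tested 1 rose, Gp1ba, from under the floor (0.0153 CPM) to 0.557 ± 0.368 CPM (SD, n = 6), and Gp6 and Tubb1 were at or under 0.116 CPM on average in both groups. Of 12 tumor epithelial genes 3 fell (Krt8, Krt18, Wfdc2) and 0 rose, with 2 higher at an unadjusted p of at most 0.05 (Epcam and Cldn3, both low) and a median log2 fold change of -0.048. The summed level, 1374 to 1608 CPM in vehicle and 1026 to 1172 CPM in BI tumors, is made up almost wholly of the 3 that fell. Of 12 proliferation genes 5 fell (Top2a, Cdk1, Ccnb1, Bub1, Aurka), and of 12 hypoxia genes 9 fell (4449 to 5130 against 3182 to 3832 CPM summed). CPM are shares of a whole tumor, and the part of these shifts in the members' values was not tested. Of 12 fibroblast genes 3 rose (Col1a2, Pi16, Thy1), with a median log2 fold change of 0.73. At an unadjusted p of at most 0.05, 8 of the 12 were higher, against 20.5% of all genes. Their summed level was 2114 to 3681 CPM in vehicle and 2881 to 6419 CPM in BI tumors. Of 10 adipocyte genes 2 rose (Pparg, Lipe), 4 were higher at that unadjusted p, and the median was 1.01. The adipocyte list summed to 38.9 to 57.4 CPM in vehicle and 46.7 to 201 CPM in BI tumors. Of 9 neutrophil genes 4 fell (S100a8, S100a9, Retnlg, Cxcr2), of 8 skeletal muscle genes 1 fell (Tnni2), and of 5 erythroid genes 0 passed the test (0 at an unadjusted p of at most 0.05).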

How the data were processed

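Total RNA of snap-frozen pieces of 4T1 tumors (3 vehicle, 6 BI) was sequenced with a stranded mRNA kit in paired-end mode. The authors aligned reads to mm9 with STAR, keeping unique hits, and counted with QuasR the reads starting in any exon of a RefSeq gene. Raw, unnormalized counts of 18755 genes were deposited beside a deposited gene length, an annotation value used only for RPKM. Groups were taken from the agent given in the labels. Symbols came from RefSeq for 18700 genes, and of 302 entries in the 22 lists beside the members 7 had no row. Use of strand in counting is not given in the sources used here.

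BI and vehicle tumors were compared by the quasi-likelihood F test of edgeR 4.0.16 (R 4.3.3), without covariates, after TMM scaling and filterByExpr (minimum count 10, minimum total 15), with Benjamini-Hochberg adjustment over 13966 genes. The SE of a log2 fold change was derived from this test, as its size divided by the square root of the F statistic. CPM carry the TMM scaling, and a prior count of 2 was added for log2 CPM. Single values were compared by exact permutation over 84 divisions, two-sided by doubling the smaller tail. The scripts were tested on simulated data. Alternatives were other normalizations, filters and tests (the likelihood ratio test, DESeq2 1.42.0, limma-voom 3.58.1), the study's cutoffs, and leaving out each tumor.

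All members were named; in each other list of vessel genes the 3 called genes with the smallest p, the most abundant gene, the 2 with the smallest p where fewer than 2 were called, and all called genes where these were 3 or fewer. Lists of other cell types are given by counts, some with sums or medians, and further names are marked or belong to a count or sum. The members and lists were chosen with earlier results of these data known. The floor of 3 counts covers counting error only, whereas SDs and SEs include the spread between tumors. Promoters for Pecam1, Cdh5 and Vwf were not used here. One gene that the rule for named genes would name is not reported here.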

Additional observations from a re-analysis of the deposited data

Results flagged for a closer look

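Within the 6 BI tumors, 90 sets of values were examined for a tumor whose distance to its nearest neighbour took up most of the range (Dixon's 95% criterion, which chance meets in about 1 group in 20). It was met 4 times. Flt1 was at 42.4 CPM in BI tumor 5, where the other BI tumors reached at most 33.0 CPM. In the same tumor, log2 CPM of Kdr was -0.495 relative to the mean of the other 9 endothelial identity genes, its lowest value in any BI tumor. Mylk, a mural cell gene, was at 89.7 CPM in BI tumor 8, and Car9, a hypoxia gene, at 31.6 CPM in BI tumor 4, each the highest of the BI tumors.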

How the results depend on the processing

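Counting each of the 10 members under 7 other settings and with 9 single tumors left out gave 160 values. All of these fold changes kept their sign, 142 kept their side of the threshold, 8 lost a call and 10 gained one. The number of members called higher was 0 to 6 over the leave-outs (0 without vehicle tumor 3) and 1 with the study's cutoffs, against 4; none was called lower. Their median log2 fold change was 0.327 to 0.431 (0.431 without vehicle tumor 2). Over all genes, 1332 to 2026 were called higher and 1172 to 1980 lower over the leave-outs, and 1339 and 499 with the study's cutoffs. For the other pan-endothelial genes the leave-outs gave 3 to 10 higher and 0 to 1 lower, and the study's cutoffs 5 and 0; for tip cell genes they gave 2 to 3 higher and 2 to 5 lower, and the study's cutoffs 1 and 3 (these counts by list were added after seeing the data). Fits without a tumor use fewer samples. Of 38 called list genes followed through the alternatives, 11 lost the call under at least 1 alternative. Relative to the other members, directions of small shifts reversed: Pecam1 was 0.0407 against the median of the others, and over the leave-outs Pecam1 lay between -0.0336 and 0.0365, Vwf between -0.0636 and 0.177, Kdr between -0.0511 and 0.159 and Emcn between -0.293 and 0.0808; the cause was not tested. Tjp1, not called, lay between -0.0132 and 0.119 over the leave-outs, and at -0.000918 without vehicle tumor 1. Other normalizations moved the median of all genes by under 0.1 on the log2 scale. No paired analysis was possible because the tumor numbers are not shared between the groups.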
